A study of Mus musculus with 9 samples.

Results

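Expression of CXC chemokine genes was examined in mature megakaryocytes (mMKs) of mouse bone marrow without and after ionizing radiation (IR). The genes Cxcl1, Cxcl2, Cxcl5, Cxcl9, Cxcl10, Cxcl11, Cxcl13, Cxcl14 and Cxcl16 were chosen by name, which made 9 of the 37325 genes named on the array, and 13 probes measured them. The groups were Ctrl mice, mice at 1 day post IR (1 dpi) and mice at 3 dpi, each measured on 3 of the 9 arrays. The labels give the mice as male, and the methods describe wild-type C57BL/6 animals that took 5 Gy of γ-rays over the whole body in 1 exposure, or sham exposure in Ctrl. The age of these mice is not given in the sources used here, and the design text speaks of separate experiments with different donors. mMKs were enriched from marrow by selecting for CD41 and then for CD42d, and the RNA is said to come from sorted mMKs. The methods describe an Affymetrix chip, whereas the files hold the scanner output of Agilent 1-colour arrays, whose probes are placed on the mouse build mm9.

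CXC chemokines are small proteins that attract leukocytes through receptors on the target cell, and the family is named after a spaced pair of cysteines near its start. Cxcl1, Cxcl2 and Cxcl5 carry the ELR motif ahead of these cysteines, bind CXCR2 and attract neutrophils, whereas the interferon-inducible Cxcl9, Cxcl10 and Cxcl11 bind CXCR3, which activated T cells and NK cells carry. In bone marrow, CXC ligands govern the retention and release of neutrophils, B cells and progenitors, and megakaryocytes themselves store the CXC ligands Pf4 and Ppbp in their granules.

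Levels are given as the log2 intensity of a probe minus the 75th percentile of its array, termed the scaled level. Between 69.1% and 81.8% of the spots of an array were well above background, with the lowest share on Ctrl replicate 1, which lay alone on slide 1 while the other 8 arrays lay on slide 2. The arrays at 1 dpi also stood apart within slide 2, with shares of 72.3% to 75.6% and median intensities of 68.9 to 72.1, against at least 79.5% and 121.7 on the other arrays of that slide. The 3 groups were compared with limma over 29410 genes, and a gene was called higher or lower if it changed 2-fold or more and its adjusted p (Benjamini-Hochberg) was under 0.05. The adjusted p-values set a difference against the spread between these arrays, and precision is limited with so few arrays, as 0.1 is the smallest p that an exact permutation of 3 against 3 can reach. Over all genes the median log2 fold change lay at 0.25 at 1 dpi, at 0.11 at 3 dpi and at -0.11 for 3 dpi against 1 dpi, and changes relative to this shift are given beside the fitted values. As for the label, all 15 megakaryocyte markers, among them Itga2b, Gp9 and Pf4, were well above background on all 9 arrays. Of these 15, 0 were called by limma or by the methods' t-test in any of the 3 comparisons. Of all genes, limma called 15.2% at 1 dpi, 8.80% at 3 dpi and 8.80% between both. Among the 15 markers, 8, 7 and 9 had an unadjusted p under 0.05 in the same order. The summed intensity of the megakaryocyte list, in units of the 75th percentile of the array, ranged from 149 to 179 over the 9 arrays, and Pf4 had the brightest signal.

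Most of the CXC chemokine genes were higher after IR. At 1 dpi 7 of the 9 genes rose (Cxcl1, Cxcl2, Cxcl9, Cxcl10, Cxcl11, Cxcl13 and Cxcl14), beside 15.2% of all genes called, 12.3% higher and 2.87% lower. At 3 dpi 6 of the 9 genes rose (Cxcl1, Cxcl9, Cxcl10, Cxcl13, Cxcl14 and Cxcl16), beside 8.80% of all genes called, 6.98% higher and 1.82% lower. From 1 to 3 dpi Cxcl13 and Cxcl14 rose further and Cxcl10 fell, which made 3 of 9 genes beside 8.80% of all genes called, 3.97% higher and 4.82% lower. By probe, 8, 7 and 4 of the 13 were called in the same order, beside 14.6%, 8.44% and 8.78% of all 44300 probes tested. The median log2 fold change of the 9 genes was 2.24 at 1 dpi and 1.53 at 3 dpi, beside 0.25 and 0.11 over all genes, and with Cxcl13 at its lower bound it was 2.04 and 1.53. For 3 dpi against 1 dpi it was -0.16, beside -0.11 over all genes. The groups compared were fully separate in 9, 8 and 6 of the 9 genes, beside 67.5%, 47.0% and 65.5% of all genes. Both comparisons with Ctrl use the same Ctrl arrays.

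Of the 9 genes, 8 were well above background on all 9 arrays. Cxcl13 was well above background on 0 of 3 Ctrl arrays and entered the test through the irradiated groups alone, so its calls against Ctrl rest on Ctrl signals near background. Among the 24040 genes well above background on all 9 arrays, 6, 5 and 2 of 8 members were called, beside 3133, 1730 and 1776 of all those genes. Within slide 2, that is without Ctrl replicate 1, 6, 6 and 3 of the 9 genes were called, beside 3599, 2404 and 2881 of 30046 genes, because Cxcl11 was no longer called at 1 dpi and Cxcl2 replaced Cxcl16 at 3 dpi. The share of higher genes among all those called moved with the processing, and among the alternatives the deposited table also differs in genes and probes and normexp in background correction. It was 81.1% at 1 dpi, against 56.3% after quantile normalization, 48.9% after scaling to the array median, 49.8% in the deposited table and 68.7% with normexp and quantile normalization. At 3 dpi it was 79.4%, against 66.8% in the deposited table. For 3 dpi against 1 dpi it was 45.2%, against 62.9% after quantile normalization, 67.2% after scaling to the array median, 62.6% in the deposited table and 24.9% with normexp and the 75th percentile. The 9 CXC genes kept their direction against Ctrl in these alternatives, except Cxcl11 at 3 dpi, for which the deposited table (-0.07) holds the dimmer probe, at -0.05 here.

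**Figure D1:**
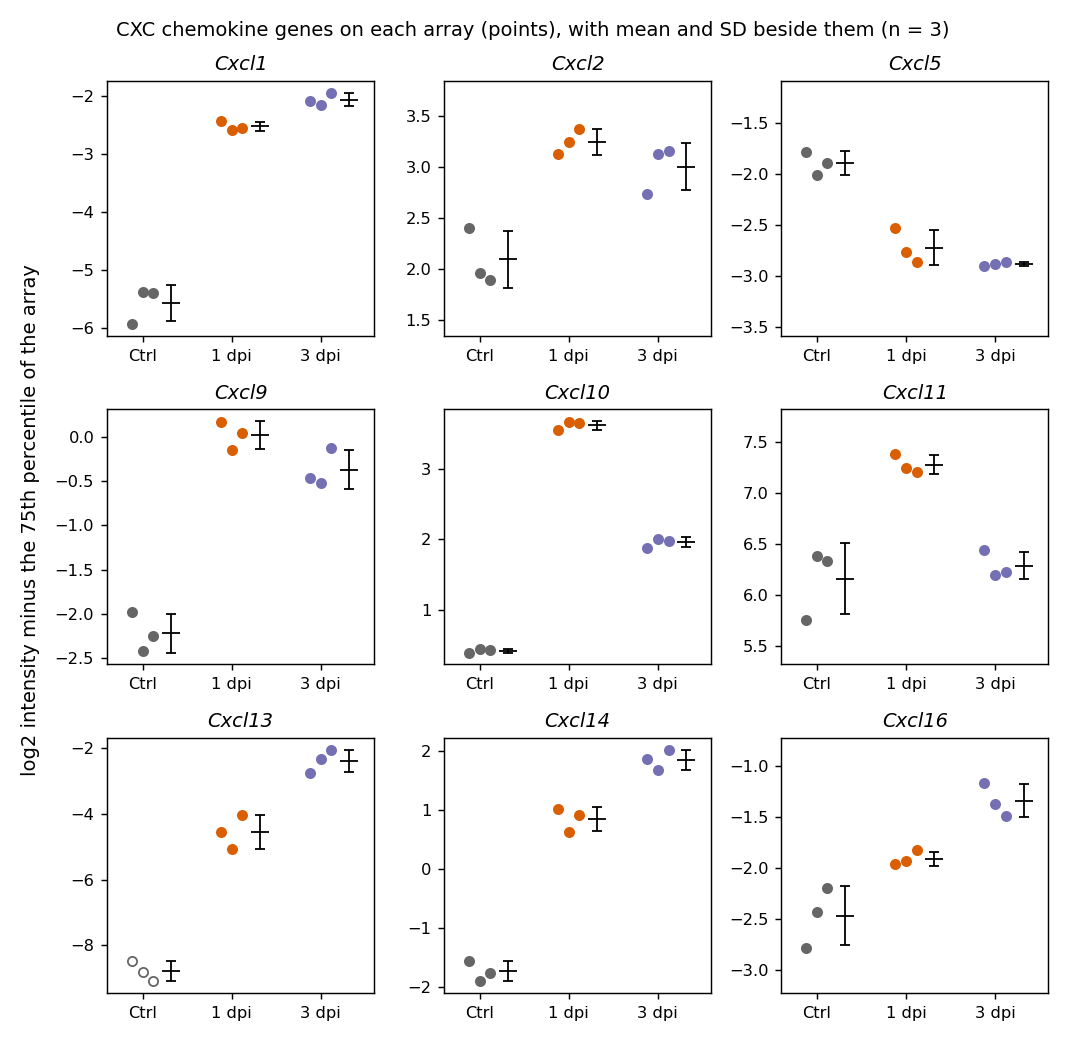
Scaled level (log2 intensity minus the 75th percentile of the array) of the 9 CXC chemokine genes on each of the 9 arrays, with the group mean and SD (n = 3) beside the points and open points for arrays on which the probe was not well above background. The 1 dpi points lie above all Ctrl points in 8 of the 9 genes and below them in Cxcl5, and the Ctrl points of Cxcl13 are open.

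Of the neutrophil attractants, Cxcl1 and Cxcl2 were called higher at 1 dpi, while Cxcl5 lay below Ctrl, short of the 2-fold minimum. The scaled level of Cxcl1, measured by a probe at chr5:91322080-91322139 (mm9), was -5.94, -5.39 and -5.40 on the Ctrl arrays, -2.44, -2.60 and -2.56 at 1 dpi and -2.09, -2.17 and -1.95 at 3 dpi. All 6 irradiated arrays thus lay far above the 3 Ctrl arrays, and the 3 dpi arrays lay slightly above those at 1 dpi. Cxcl1 rose 8.24-fold at 1 dpi (log2 fold change 3.04, SE 0.15, adjusted p = 5.19e-06) and 11.4-fold at 3 dpi (3.51, SE 0.15, adjusted p = 2.28e-06). Relative to the shift of all genes these log2 changes were 2.79 and 3.40. Between 1 and 3 dpi the log2 difference was 0.47 (SE 0.15, adjusted p = 0.0391), short of 2-fold. Cxcl1 was dim, and normexp background correction, which adds an offset of 50, brought its log2 change to 1.88 at 1 dpi and 2.04 at 3 dpi, or to 1.37 and 1.84 with quantile normalization, all still called.

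Cxcl2, which neutrophils and macrophages release early in inflammation, rose at 1 dpi. Its scaled level (chr5:91334534-91334593, mm9) was 2.40, 1.96 and 1.89 on the Ctrl arrays, 3.12, 3.24 and 3.37 at 1 dpi and 2.73, 3.12 and 3.15 at 3 dpi. Both irradiated groups lay above Ctrl on all arrays and overlapped with each other. The change was 2.23-fold at 1 dpi (log2 fold change 1.16, SE 0.17, adjusted p = 0.000875) and 1.88-fold at 3 dpi (0.91, SE 0.17, adjusted p = 0.00435), the latter short of the 2-fold minimum. The call of Cxcl2 sat close to that minimum, since relative to all genes the log2 changes were 0.91 and 0.80, while without Ctrl replicate 1 they were 1.32 and 1.07 and both were called. Leaving out 3 dpi replicate 1 also brought the 3 dpi value past 2-fold, to 1.05, and scaling to the array median brought the 1 dpi value to 0.84.

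Cxcl5 was the sole member below Ctrl. Its scaled level (chr5:91190490-91190549, mm9) was -1.78, -2.01 and -1.89 on the Ctrl arrays, -2.53, -2.76 and -2.86 at 1 dpi and -2.90, -2.88 and -2.86 at 3 dpi. Every irradiated array lay below every Ctrl array, and the 3 dpi arrays differed little among themselves. The log2 fold change at 1 dpi was -0.83 (SE 0.10, adjusted p = 0.000349), that at 3 dpi was -0.99 (SE 0.10, adjusted p = 0.000198), and Cxcl5 passed the adjusted p and missed the 2-fold minimum. Relative to the shift of all genes the values were -1.08 and -1.10, both past 2-fold. Cxcl5 was also called lower at 1 dpi after quantile normalization (-1.02), in the deposited table (-1.02) and after scaling to the array median (-1.14), and at 3 dpi after scaling to the array median (-1.11) and without Ctrl replicate 2 (-1.05).

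Because Cxcl1 and Cxcl2 lie close together on chromosome 5 and were both called higher at 1 dpi, their promoters are shown. The sequences come from RefSeq (build GRCm38.p6), run from 250 bases before to 50 bases after the start of the gene, and cover chr5:90890995-90891294 on the plus strand for Cxcl1 and chr5:90903649-90903948 on the plus strand for Cxcl2. A kappaB motif, searched as GGANNTTCC on both strands, is in capitals.
Cxcl1: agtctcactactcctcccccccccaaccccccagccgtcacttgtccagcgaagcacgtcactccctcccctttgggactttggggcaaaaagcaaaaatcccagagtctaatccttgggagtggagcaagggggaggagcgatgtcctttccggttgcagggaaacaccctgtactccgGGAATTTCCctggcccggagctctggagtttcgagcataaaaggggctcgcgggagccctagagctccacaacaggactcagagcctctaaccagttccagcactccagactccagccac
Cxcl2: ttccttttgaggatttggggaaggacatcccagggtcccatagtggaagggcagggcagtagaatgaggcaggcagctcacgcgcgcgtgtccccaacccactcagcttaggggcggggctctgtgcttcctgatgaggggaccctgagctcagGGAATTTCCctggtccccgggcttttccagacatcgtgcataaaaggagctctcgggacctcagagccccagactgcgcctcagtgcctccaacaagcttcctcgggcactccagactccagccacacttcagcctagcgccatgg
Both promoters hold the same letters, GGAATTTCC, starting at -70 from the start in Cxcl1 and at -96 in Cxcl2. The promoter of the related Cxcl3 holds them too, at -72. This motif is held by 4.26% of all 32851 promoters listed, and a match describes the letters and not the binding of a factor.

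The interferon-inducible ligands Cxcl9, Cxcl10 and Cxcl11 were all called higher at 1 dpi, though Cxcl11 by its brighter probe alone and not in all alternatives. Of these ligands, Cxcl10 was called lower again from 1 to 3 dpi. The scaled level of Cxcl10 (brighter probe, chr5:92775781-92775840, mm9) was 0.39, 0.45 and 0.43 on the Ctrl arrays, 3.55, 3.66 and 3.65 at 1 dpi and 1.88, 2.01 and 1.98 at 3 dpi. The 3 groups were fully separate, with the 1 dpi arrays on top and the 3 dpi arrays between those and Ctrl. Cxcl10 rose 9.16-fold at 1 dpi (log2 fold change 3.20, SE 0.06, adjusted p = 1.08e-07) and 2.90-fold at 3 dpi (1.53, SE 0.06, adjusted p = 1.72e-06). From 1 to 3 dpi it fell by 1.66 on the log2 scale (SE 0.06, adjusted p = 6.59e-06). Relative to all genes these values were 2.95, 1.42 and -1.55. All 3 calls held in each of the 22 alternatives run for them, several of which leave the log2 values unchanged by the way they are made.

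The other probe of Cxcl10 (chr5:92776616-92776675, mm9) had scaled levels of -3.42, -3.72 and -3.51 in Ctrl, -1.14, -1.05 and -0.90 at 1 dpi and -2.99, -3.06 and -3.15 at 3 dpi. It showed the same order of the groups, with a log2 fold change of 2.52 at 1 dpi and of -2.04 for 3 dpi against 1 dpi, both called. At 3 dpi against Ctrl it gave 0.48 (SE 0.10, adjusted p = 0.00821), so the 2 probes disagree on whether Cxcl10 was still past 2-fold at 3 dpi.

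Cxcl9, which is induced mainly by interferon gamma, stayed closer to its 1 dpi level. Its scaled level (chr5:92752191-92752250, mm9) was -1.98, -2.42 and -2.25 on the Ctrl arrays, 0.17, -0.15 and 0.04 at 1 dpi and -0.46, -0.52 and -0.12 at 3 dpi. The irradiated arrays all lay above Ctrl, and the 1 dpi and 3 dpi arrays overlapped. Cxcl9 rose 4.72-fold at 1 dpi (log2 fold change 2.24, SE 0.15, adjusted p = 2.42e-05) and 3.61-fold at 3 dpi (1.85, SE 0.15, adjusted p = 7.06e-05), or 1.99 and 1.74 relative to all genes. The log2 difference of -0.39 between 3 and 1 dpi (SE 0.15, adjusted p = 0.0741) did not pass the test.

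Cxcl11 is measured by 2 probes that lie next to each other without sharing bases (chr5:92788567-92788626 and chr5:92788640-92788699, mm9). The RefSeq table of GRCm38.p6 lists Cxcl11 as a transcribed pseudogene, and the name used here is that of the array files. The scaled level of the brighter probe was 5.76, 6.38 and 6.33 on the Ctrl arrays, 7.38, 7.25 and 7.21 at 1 dpi and 6.44, 6.20 and 6.23 at 3 dpi. The 1 dpi arrays lay above all others, Ctrl replicate 1 lay below the other Ctrl arrays, and Ctrl and 3 dpi overlapped. Cxcl11 rose 2.18-fold at 1 dpi (log2 fold change 1.12, SE 0.17, adjusted p = 0.000984), and at 3 dpi the log2 fold change was 0.13 (SE 0.17, adjusted p = 0.575). The 1 dpi call was lost without Ctrl replicate 1, that is within slide 2 (0.92), and relative to all genes (0.87). It was lost in 7 of 22 alternatives in all, among them quantile normalization (0.52), normexp with it (0.53), the array median (0.81) and the mean of both probes (0.91). The other probe read 1.47, 2.30 and 2.39 in Ctrl, 2.85, 2.74 and 2.65 at 1 dpi and 1.90, 2.01 and 2.09 at 3 dpi, and its 1 dpi value of 0.69 (SE 0.22, adjusted p = 0.0299) was short of 2-fold. The log2 difference between 3 and 1 dpi was -0.99 (SE 0.17, adjusted p = 0.00239) for the brighter and -0.74 for the other probe, neither called, though leaving out 1 dpi replicate 2, 1 dpi replicate 3 or 3 dpi replicate 1 brought the brighter probe past 2-fold (-1.01, -1.03 and -1.07).

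The promoters of Cxcl9 and Cxcl10 are shown because both genes were called higher at 1 and at 3 dpi and both are known interferon targets. They cover chr5:92328030-92328329 on the minus strand for Cxcl9 and chr5:92348840-92349139 on the minus strand for Cxcl10 (RefSeq, GRCm38.p6). Capitals mark the interferon-stimulated response element, searched as GAAANNGAA, and the kappaB motif GGANNTTCC, both on either strand.
Cxcl9: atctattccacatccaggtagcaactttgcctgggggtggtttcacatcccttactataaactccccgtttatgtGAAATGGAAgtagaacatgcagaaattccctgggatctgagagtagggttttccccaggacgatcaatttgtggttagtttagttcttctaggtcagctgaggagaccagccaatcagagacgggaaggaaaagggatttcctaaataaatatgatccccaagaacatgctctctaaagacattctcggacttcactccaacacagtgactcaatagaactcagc
Cxcl10: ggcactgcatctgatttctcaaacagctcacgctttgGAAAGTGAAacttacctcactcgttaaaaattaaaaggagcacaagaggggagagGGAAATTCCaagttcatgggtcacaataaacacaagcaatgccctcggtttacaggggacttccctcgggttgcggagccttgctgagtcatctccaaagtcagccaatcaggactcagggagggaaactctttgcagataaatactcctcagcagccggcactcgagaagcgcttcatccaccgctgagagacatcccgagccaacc
Cxcl9 holds GAAATGGAA at -175, and Cxcl10 holds GAAAGTGAA at -213 and the kappaB letters GGAAATTCC at -158. GAAANNGAA is found in 8.56% of all promoters of the table. The STAT motif TTCNNNGAA, which can share bases with the former, is found in 8.30%. Of the 9 members, 6 had a promoter in the table, of which 3 held GAAANNGAA (Cxcl9, Cxcl10 and Cxcl14), 1 held TTCNNNGAA (Cxcl14) and 3 held GGANNTTCC (Cxcl1, Cxcl2 and Cxcl10). Cxcl13 held no match in this window, and Cxcl5, Cxcl11 and Cxcl16 were not matched to the table.

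**Figure D2:**
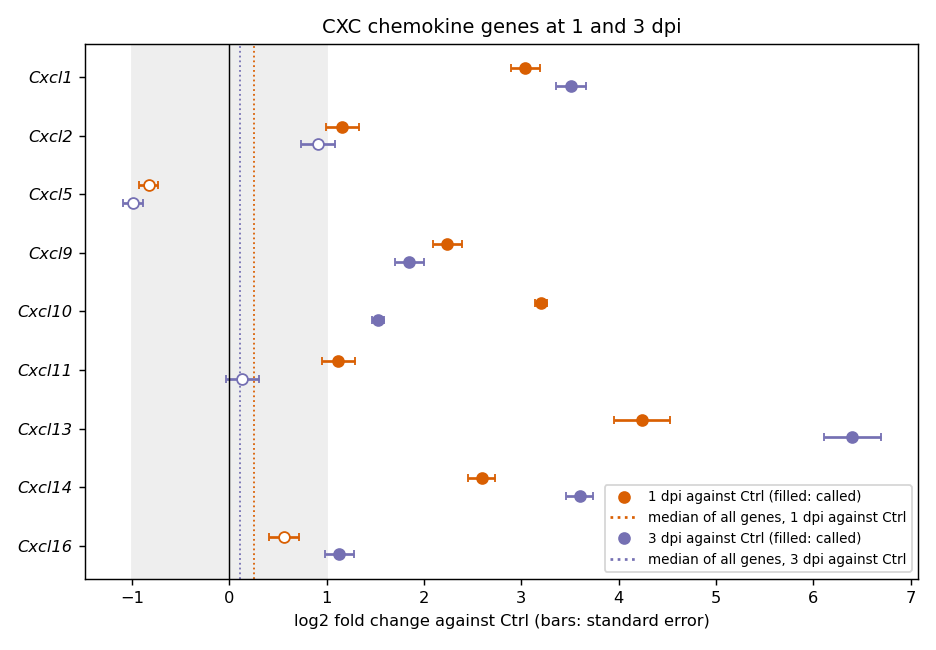
Log2 fold change against Ctrl at 1 dpi and at 3 dpi for each of the 9 genes, with bars for the standard error, filled points for called genes and the band below 2-fold in grey. The medians of all genes are dotted lines at 0.25 and 0.11, and 7 genes at 1 dpi and 6 at 3 dpi are filled, all to the right of the band, while Cxcl5 lies to the left of 0 and Cxcl13 is plotted with its measured Ctrl levels, which were not well above background.

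Cxcl13, Cxcl14 and Cxcl16, which do not signal through CXCR2 or CXCR3, were all called higher at 3 dpi against Ctrl. Cxcl13, the ligand of CXCR5 that draws B cells into follicles, was not well above background in Ctrl. Its scaled level (chr5:96389861-96389920, mm9) was -8.47, -8.80 and -9.08 on the Ctrl arrays, -4.56, -5.05 and -4.03 at 1 dpi and -2.74, -2.34 and -2.06 at 3 dpi. It was well above background on all 6 irradiated arrays, and the 3 groups were fully separate. Set against a Ctrl level held at the dimmest signal that counts as well above background on each array (mean -6.59), Cxcl13 was at least 4.12-fold higher at 1 dpi and at least 18.5-fold higher at 3 dpi. From 1 to 3 dpi it rose 4.49-fold (log2 fold change 2.17, SE 0.29, adjusted p = 0.000878). Values against Ctrl under normexp were fitted on the Ctrl signal and are not bounds. With normexp and quantile normalization the log2 value was 0.68 at 1 dpi, not called, and 2.12 at 3 dpi. With normexp and the 75th percentile it was 1.45 and 2.33, and the value between 3 and 1 dpi was 0.87 and was not called.

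Cxcl14, which attracts monocytes and dendritic cells and is made in connective tissue, rose at both times. Its scaled level by the brighter probe (chr13:56390078-56390137, mm9) was -1.56, -1.90 and -1.77 on the Ctrl arrays, 1.02, 0.62 and 0.91 at 1 dpi and 1.87, 1.68 and 2.03 at 3 dpi. The groups were fully separate, with Ctrl lowest and 3 dpi highest. Cxcl14 rose 6.03-fold at 1 dpi (log2 fold change 2.59, SE 0.14, adjusted p = 7.56e-06), 12.2-fold at 3 dpi (3.60, SE 0.14, adjusted p = 1.44e-06) and 2.02-fold from 1 to 3 dpi (1.01, SE 0.14, adjusted p = 0.00102). The last of these calls was at the edge of the 2-fold minimum, and it was lost without 1 dpi replicate 2 (0.90), without 3 dpi replicate 3 (0.93), after quantile normalization (0.97) and in the deposited table (0.98).

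The other Cxcl14 probe lies in a predicted transcript of the gene (chr13:56397748-56398037, mm9) and gave a different picture. It read -4.62, -4.47 and -4.48 in Ctrl, -3.94, -4.39 and -3.95 at 1 dpi and -4.58, -4.78 and -4.73 at 3 dpi. These levels were dim and lay close together, with 3 dpi overlapping Ctrl. Its log2 fold change was 0.43 at 1 dpi (SE 0.13, adjusted p = 0.0246), -0.17 at 3 dpi (SE 0.13, adjusted p = 0.344) and -0.60 between them (SE 0.13, adjusted p = 0.00698), with 0 of 3 called. Averaging both probes gave Cxcl14 values of 1.51, 1.71 and 0.21, of which the first and second were called.

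Cxcl16, a membrane-bound ligand of CXCR6 that can be shed by proteases, was called at 3 dpi. Its scaled level by the brighter probe (chr11:70267780-70267839, mm9) was -2.78, -2.43 and -2.20 on the Ctrl arrays, -1.96, -1.93 and -1.82 at 1 dpi and -1.17, -1.37 and -1.49 at 3 dpi. The 3 groups did not overlap, though the gap between Ctrl replicate 3 and the 1 dpi arrays was small. Cxcl16 was 2.19-fold higher at 3 dpi (log2 fold change 1.13, SE 0.15, adjusted p = 0.000918), while its 1 dpi value of 0.56 (SE 0.15, adjusted p = 0.0152) and its value of 0.57 between 3 and 1 dpi (SE 0.15, adjusted p = 0.0182) missed the 2-fold minimum. The other probe (chr11:70269481-70269540, mm9) read -4.50, -3.78 and -3.79 in Ctrl, -3.42, -3.69 and -3.53 at 1 dpi and -2.80, -2.78 and -2.71 at 3 dpi, and it too was called at 3 dpi alone (1.26, SE 0.19, adjusted p = 0.00149). Without Ctrl replicate 1, that is within slide 2, the 3 dpi value of Cxcl16 was 0.97 and was not called, though its other probe was, and with normexp it was 0.94, or 0.88 with quantile normalization. In the deposited table, which holds the other probe, Cxcl16 was called for 3 dpi against 1 dpi at 1.00.

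For Cxcl1, Cxcl9, Cxcl10 and Cxcl14, the log2 fold changes within slide 2 lay near those over all arrays. At 1 dpi they were 2.86 for Cxcl1, 2.35 for Cxcl9, 3.18 for Cxcl10 and 2.68 for Cxcl14. At 3 dpi they were 3.33 for Cxcl1, 1.97 for Cxcl9, 1.52 for Cxcl10 and 3.69 for Cxcl14. All of these remained called. Slide as a block must give the same values, because slide 1 holds Ctrl replicate 1 alone, so it is not a second check.

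**Figure D3:**
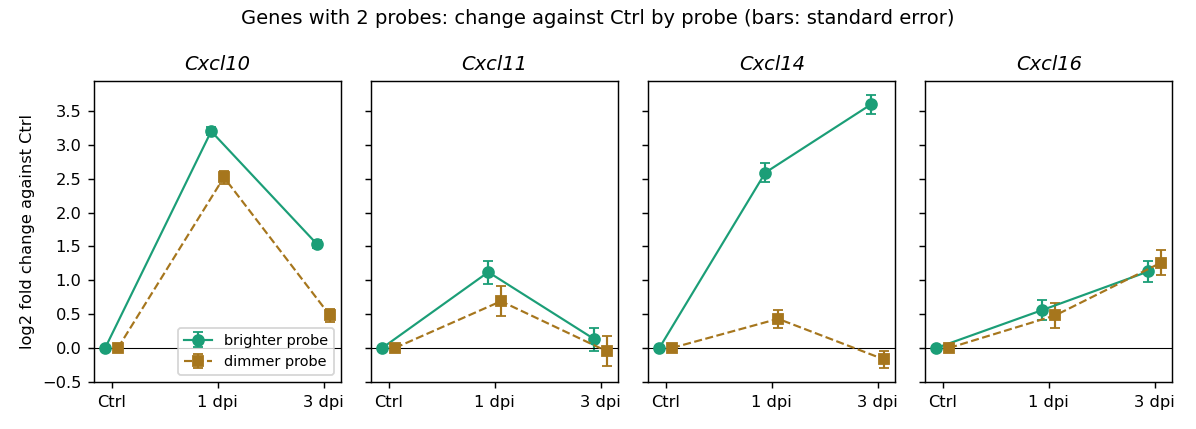
Log2 fold change against Ctrl for the brighter and the dimmer probe of the 4 genes with 2 probes, with bars for the standard error. Both probes of Cxcl10 and Cxcl11 are highest at 1 dpi and both of Cxcl16 at 3 dpi, while the dimmer Cxcl14 probe lies at 0.43 and -0.17 where the brighter probe lies at 2.59 and 3.60.

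The other CXC ligands were mostly not called. Cxcl12, the stromal ligand of CXCR4 that holds progenitors and B cells in the marrow, was the exception. Its scaled level was 1.94, 1.59 and 1.59 on the Ctrl arrays, 4.51, 4.32 and 4.44 at 1 dpi and 5.22, 5.15 and 5.26 at 3 dpi. The 3 groups were fully separate and rose in the order Ctrl, 1 dpi and 3 dpi. Cxcl12 rose 6.56-fold at 1 dpi (log2 fold change 2.71, SE 0.11, adjusted p = 1.9e-06) and 11.3-fold at 3 dpi (3.50, SE 0.11, adjusted p = 4.9e-07), and its value of 0.79 between 3 and 1 dpi was not called, whereas its other probe was called there at 1.53. Pf4, the platelet factor stored by megakaryocytes, had log2 fold changes of 0.09, 0.01 and -0.09 in the 3 comparisons, and Ppbp of -0.09, 0.64 and 0.73, none called. Cxcl3, a further CXCR2 ligand, had a log2 fold change at 1 dpi of 0.87 (SE 0.08, adjusted p = 0.000103) and at 3 dpi of 0.97 (SE 0.08, adjusted p = 7.02e-05), both short of 2-fold. Cxcl15 was well above background on 0 of 9 arrays, and Cxcl17 was so on 2 Ctrl arrays, 1 array at 1 dpi and 0 at 3 dpi, so neither was tested. Thus 1 of the 4 ligands tested was called at 1 dpi and 1 at 3 dpi, beside 15.2% and 8.80% of all genes. For 3 dpi against 1 dpi 0 of 4 were called by limma or the methods' t-test, beside 8.80% of all genes by limma. Of the 4, 2 had an unadjusted p under 0.05.

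All 10 CXC and atypical chemokine receptor genes were tested. At 1 dpi 2 rose and 1 fell, at 3 dpi 5 rose and 1 fell, and between 1 and 3 dpi 3 rose. Of all genes, 12.3%, 6.98% and 3.97% were higher and 2.87%, 1.82% and 4.82% lower in these comparisons. The median log2 fold change of the receptors was 0.47, 0.95 and 0.57, beside 0.25, 0.11 and -0.11 over all genes. Cxcr1, a receptor on neutrophils, was higher at 1 dpi (log2 fold change 2.26, SE 0.13, adjusted p = 1.21e-05) and also at 3 dpi (1.67, SE 0.13, adjusted p = 6.02e-05). Cxcr2, through which Cxcl1, Cxcl2 and Cxcl5 act, had 0.54 and 0.49, not called. Cxcr3, the receptor of Cxcl9 and Cxcl10, had 0.39 at 1 dpi and rose by 1.27 at 3 dpi (SE 0.11, adjusted p = 9.01e-05). Cxcr5, the receptor of Cxcl13, was lower at 1 dpi (-2.06, SE 0.15, adjusted p = 3.07e-05) and also at 3 dpi (-1.80, SE 0.15, adjusted p = 6.85e-05). Its scaled level was -2.55, -2.70 and -2.61 in Ctrl, -4.50, -4.71 and -4.83 at 1 dpi and -4.33, -4.20 and -4.74 at 3 dpi, with all Ctrl arrays on top and both irradiated groups overlapping. Cxcr4 had 0.09, -0.32 and -0.41, and Cxcr6, the receptor of Cxcl16, had -0.36, 0.53 and 0.89, none called, though the other Cxcr6 probe was called for 3 dpi against 1 dpi (1.35, SE 0.09, adjusted p = 4.52e-05).

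The atypical receptors take up chemokines without the usual signal. Ackr1, a scavenger of Cxcl1 and related ligands on endothelium and red cells, had 0.83 at 1 dpi, short of 2-fold, and rose by 2.35 at 3 dpi (SE 0.07, adjusted p = 3.67e-07). Ackr4 rose at both times by its brighter probe, by 2.52 (SE 0.28, adjusted p = 0.000266) and 3.88 (SE 0.28, adjusted p = 3.63e-05). Its other probe was well above background on 0 of 3 Ctrl arrays and was at least 5.08-fold and 18.2-fold higher at 1 and 3 dpi. Ackr2 had 0.85 at 1 dpi and rose by 1.96 at 3 dpi (SE 0.07, adjusted p = 7.46e-07), whereas its other probe was not called in any comparison. Ackr3, which binds Cxcl12 and Cxcl11, had 0.41, 0.64 and 0.24, not called. Ackr1, Ackr2 and Ackr4 were also called higher at 3 dpi than at 1 dpi, at 1.52, 1.11 and 1.36.

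Among genes upstream of CXC chemokines were 16 for interferons, their receptors and their signalling. Of these 6 rose at 1 dpi and 2 at 3 dpi, beside 12.3% and 6.98% of all genes, and 3 fell from 1 to 3 dpi, beside 4.82% of all genes. The median log2 fold change was 0.47, 0.21 and -0.14. Irf7, the interferon regulatory factor that is itself induced by interferon, rose by 2.14 (SE 0.08, adjusted p = 1.45e-06) and 1.25 (SE 0.08, adjusted p = 1.59e-05) at the 2 times. Irf1, a transcription factor induced by interferon gamma, rose at 1 dpi by 1.48 and fell by 1.59 from 1 to 3 dpi, as Cxcl10 did, and its 3 dpi value of -0.11 was not called. Ifnb1, a type I interferon, was well above background on 0 of 3 Ctrl arrays and on all 6 irradiated arrays, and it fell by 2.18 from 1 to 3 dpi (SE 0.17, adjusted p = 9.18e-05). It is counted among the 6 genes at 1 dpi, and without it 5 of 15 rose. Ifng, which T and NK cells make, rose at both times, by 1.30 and 2.21, and was not called between them (0.91).

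In the list of 19 genes of NF-kappaB and its inflammatory inputs, 5 rose at 1 dpi and 2 at 3 dpi, beside the same 12.3% and 6.98% of all genes, with a median log2 fold change of 0.31 and 0.46. The cytokine genes Il6, Il1b and Tnf rose at 1 dpi by 2.07, 1.44 and 1.40, Tnfaip3, a feedback inhibitor of NF-kappaB, by 1.22 and Tlr2, a receptor for bacterial lipoproteins, by 1.16. At 3 dpi Il6 and Tlr2 rose by 1.79 and 1.24. For 3 dpi against 1 dpi 0 of 19 genes were called by limma or the methods' t-test, beside 8.80% of all genes by limma. Of the 19, 12 had an unadjusted p under 0.05, and the median was -0.15. The processing and presentation of CXC ligands was covered by 11 genes. Of these, 3 rose at 1 dpi, beside 12.3% of all genes, and 2 at 3 dpi, beside 6.98%. From 1 to 3 dpi 1 fell, beside 4.82% of all genes. The medians of the list were -0.10, 0.15 and 0.28 in the 3 comparisons. Mmp2, a gelatinase that can trim Cxcl12, was higher at 1 dpi (3.83, SE 0.09, adjusted p = 2.42e-07) and also at 3 dpi (2.68, SE 0.09, adjusted p = 6.82e-07). Sdc2, a heparan sulfate proteoglycan of the kind that holds chemokines on cell surfaces, rose by 1.07 and 1.70. Mmp9, the gelatinase of neutrophil granules, rose by 1.00 at 1 dpi.

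Markers of other marrow cell types were measurable in these samples and moved with several of the results above. In bulk samples, a change in the number of cells of a type and a change in RNA per cell cannot be told apart. The summed intensity of a list is given in units of the 75th percentile of the array. Sums and medians of the marker lists were taken under this scaling alone, and their dependence on it was not tested. Beside the counts of each list stand 12.3%, 6.98% and 3.97% of all genes called higher and 2.87%, 1.82% and 4.82% called lower in the 3 comparisons. All 14 stromal markers, which include Cxcl12, were well above background on all arrays, and their sum was 10.9, 10.6 and 11.1 in Ctrl, 53.0, 45.8 and 49.7 at 1 dpi and 100, 91.3 and 98.7 at 3 dpi, with Cxcl12 the brightest. The sums were ordered Ctrl, 1 dpi and 3 dpi without overlap, like the levels of Cxcl1, Cxcl13, Cxcl16 and, by its brighter probe alone, Cxcl14. The macrophage and endothelial sums given below had the same order, also without overlap. Of the 14, 9 rose at 1 dpi, 9 at 3 dpi and 7 from 1 to 3 dpi. The mean levels of Lepr, Pdgfra and Runx2 at 1 dpi (0.83, -3.59 and -1.79) were above those at 3 dpi (-0.14, -4.05 and -2.58), none called between these times. Col1a2, a collagen gene, rose by 2.36 and 3.50, and Adipoq, a gene of fat cells and their marrow precursors, had 0.75 at 1 dpi and rose by 4.23 at 3 dpi. The part of these cells in the chemokine values was not tested.

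The 15 macrophage markers were all well above background on every array. Their sum was 62.3, 55.9 and 53.7 in Ctrl, 85.7, 80.4 and 84.6 at 1 dpi and 148, 144 and 142 at 3 dpi. Csf1r was the brightest at 3 dpi, while in Ctrl the mean level of Vcam1 (3.98) lay above that of Csf1r (3.78). Macrophages are a known source of Cxcl2, Cxcl9, Cxcl10, Cxcl13 and Cxcl16. At 1 dpi 7 of the 15 rose and 2 fell, at 3 dpi 11 rose, and from 1 to 3 dpi 7 rose, beside 12.3%, 6.98% and 3.97% of all genes higher. Marco, a scavenger receptor, rose by 2.95 and 3.87 against Ctrl, while Timd4, of resident macrophages, fell by 2.52 at 1 dpi and rose by 3.05 from 1 to 3 dpi. Of the 13 endothelial markers, Stab1 was the brightest after IR, while in Ctrl its mean level (-1.32) lay below that of Stab2 (-0.34). Of the 13, 5 rose at 1 dpi, 8 at 3 dpi and 2 from 1 to 3 dpi. Their sum was 4.86, 4.58 and 4.65 in Ctrl, 13, 12 and 12 at 1 dpi and 20, 17 and 17 at 3 dpi, and Flt4 was the marker not well above background on all arrays (on 2 of 3 in Ctrl, 2 of 3 at 1 dpi and 3 of 3 at 3 dpi). The part of macrophages and endothelium in the chemokine values was not tested.

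**Figure D4:**
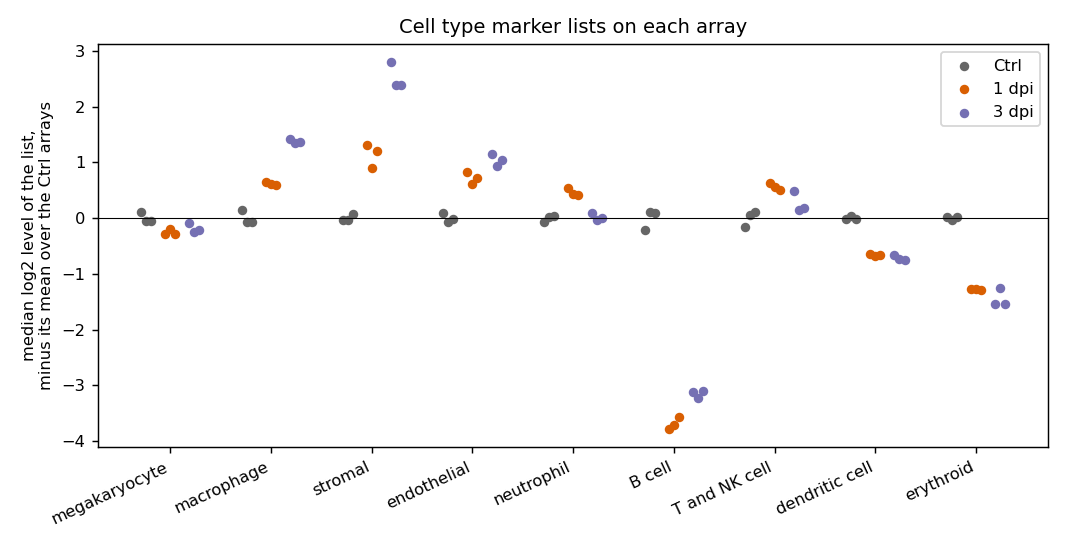
Median scaled level (log2) of 9 cell type marker lists on each of the 9 arrays, with the mean over the Ctrl arrays subtracted. Points of the stromal and macrophage lists rise from Ctrl to 1 dpi to 3 dpi, the B cell points of irradiated mice lie lowest, and the megakaryocyte points stay near 0.

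The neutrophil list, which includes Cxcr2, was bright throughout, and all 13 markers were well above background on all arrays. Its sum was 1330, 1400 and 1390 in Ctrl, 2300, 2150 and 2120 at 1 dpi and 1460, 1320 and 1400 at 3 dpi, with Mpo the brightest. Under this scaling 1 dpi stood above both other groups, and no other scaling was run for the list. S100a8 and S100a9 rose at 1 dpi, by 1.14 and 1.02, and made up the 2 calls of the list there. At 3 dpi and for 3 dpi against 1 dpi 0 of 13 were called by limma or the methods' t-test, with 4 and 11 at an unadjusted p under 0.05. Neutrophils bear the receptors of Cxcl1, Cxcl2 and Cxcl5 and can express Cxcl2 and Cxcl10 themselves, and their part in the values was not tested.

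Of the 12 B cell markers, which include Cxcr5, 10 fell at 1 dpi and 9 at 3 dpi, 4 rose from 1 to 3 dpi, and all were above background on all arrays. Of all genes 2.87% and 1.82% were lower against Ctrl and 3.97% higher from 1 to 3 dpi. Their sum was 35.5, 34.4 and 34.8 in Ctrl, 9.45, 9.21 and 9.35 at 1 dpi and 11.0, 10.3 and 10.4 at 3 dpi, with Cd79b the brightest. Whether the fall of Cxcr5 goes beyond that of B cell RNA was not tested. Of the 13 T and NK cell markers, which include Cxcr3, 3 rose and 1 fell at 1 dpi, 6 rose at 3 dpi and 4 rose from 1 to 3 dpi, beside 12.3%, 6.98% and 3.97% of all genes higher. Their sum was 34.3, 35.8 and 34.2 in Ctrl, 50.6, 47.5 and 48.1 at 1 dpi and 46.0, 42.5 and 41.2 at 3 dpi, with Nkg7 the brightest and all 13 above background on all arrays.

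The 10 dendritic cell markers tested gave 2 higher and 2 lower calls at 1 dpi, 1 lower at 3 dpi and 1 higher from 1 to 3 dpi, and Xcr1 was well above background on 0 of 9 arrays. Their sum was 33.4, 46.8 and 47.5 in Ctrl, 74.1, 70.3 and 69.0 at 1 dpi and 48.5, 45.1 and 44.1 at 3 dpi, with Siglech the brightest. The median level of the list had another course, from -0.45 to -0.40 in Ctrl, -1.11 to -1.07 at 1 dpi and -1.18 to -1.09 at 3 dpi. Of the 2 higher calls at 1 dpi, which were Siglech and Bst2, the methods' t-test kept 1, and Siglech was at 3.67 on Ctrl replicate 1 against 4.80 and 4.84 on the other Ctrl arrays. Of the 11 erythroid markers 2 rose and 7 fell at 1 dpi, 8 fell at 3 dpi, and 4 rose and 3 fell between them. Their sum, led by Hba-a1, was 110, 90.5 and 93.2 in Ctrl, 249, 204 and 200 at 1 dpi and 37.4, 37.3 and 34.9 at 3 dpi. The median level of the erythroid list fell at 1 dpi, from 0.37 to 0.43 in Ctrl to -0.89 to -0.86. At 3 dpi it was -1.14 to -0.84.

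Genes with the course most like that of each called member were sought among genes well above background on all 9 arrays, by the root mean square difference of the centred log2 levels over the 9 arrays. Closest to Cxcl10 were Ifit1 (0.11), Acod1 (0.14) and Ifit3b (0.15), of which Ifit1 and Ifit3b are known interferon-induced genes. Closest to Cxcl14 were Efemp2 (0.12), Cxcl12 (0.12) and the collagen gene Col1a2 (0.16). For Cxcl1 they were Abhd11os (0.15), Ltbp2 (0.16) and Emp2 (0.16). For Cxcl9 they were Tubb6, Ccnd1 and Phf11d, each at 0.16, and for Cxcl2 the mast cell and basophil receptor gene Fcer1a came first (0.08). Cxcl11 lay within 0.05 of BC039973, Dnah17 and Pidd1. Cxcl16 had Gm5800 (0.07) and Ank1 (0.08) near it. Cxcl13 had no close neighbour, as Cyp1b1 was at 0.58 and Tnc and Folr2 at 0.62, and its own Ctrl values were not well above background.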

How the data were processed

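Per the labels, Cy3-labelled RNA of mMKs from Ctrl mice and from mice at 1 and 3 dpi was measured on 3 arrays per group. The authors deposited the intensity of each spot from Agilent Feature Extraction 10.7.1.1, with background subtracted and no scaling between arrays. They also deposited a table of log2 values with medians of 5.79 to 5.87, whose making is not given in the sources used here, whose values for the 9 genes match 1 quantile-normalized probe each within 0.00566, and which served as an alternative. Of its value columns 0 were left unused.

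Control spots (3671 of 62976) and outlier spots were dropped, and repeated spots of a probe were averaged. Through RefSeq accessions and the table of GRCm38.p6, 32994 of 56605 probes were named, and the other 23611 kept the name in the array files. From the log2 of the intensity that the authors deposited, the 75th percentile of each array was subtracted. A probe was kept if it was well above background throughout 1 group or more (44300 probes), and the brightest of them stood for its gene (29410 genes). Where a group had 0 of 3 arrays well above background, its level was replaced per array by the higher of its own signal and the dimmest signal well above background, which gives a bound. Groups were fitted together with limma 3.58.1 in R 4.3.3 with version 1.17.8 of data.table, tables and figures were made with Python 3.11.15 and matplotlib 3.10.9, and calls took a change of 2-fold or more and an adjusted p (Benjamini-Hochberg) under 0.05. The fit was tested on simulated data. Alternatives were other normalizations, normexp (offset 50), other filters, probe means, the deposited table, slide and replicate blocks, the methods' t-test, no minimum fold, and leaving out each array. A 2-fold change relative to the median of all genes was added after seeing the data.

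The text names the 9 members and draws further names from all other CXC ligands and receptors, of each further pathway list and comparison the 4 called genes with the largest change and of each marker list the 2 brightest and the 2 with the largest change (called, and well above background on all arrays compared), and the 3 genes most like each called member. Further marker genes are named for the label check, for not being above background or, after their values were seen, for a course unlike the rest of their list. The members and lists were chosen with earlier results of these data known.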

Additional observations from a re-analysis of the deposited data

Results flagged for a closer look

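The responses at 1 and 3 dpi differed for 3 of the 9 genes, beside 8.80% of all genes, by limma's test of 3 dpi against 1 dpi. The log2 difference was -1.66 for Cxcl10, 2.17 for Cxcl13 and 1.01 for Cxcl14. Cxcl10 was lower at 3 dpi than at 1 dpi on all arrays, and Cxcl13 and Cxcl14 were higher. The other Cxcl14 probe had -0.60, and the call was lost in 6 of 22 alternatives for Cxcl14 and in 1 of 21 for Cxcl13.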

How the results depend on the processing

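Of the counts of called genes and probes, 198 values under the alternatives lay within 1.5 times the reported count and 12 did not. The number of all genes called at 1 dpi, at 3 dpi and between them was 1667, 1147 and 1088 with normexp and quantile normalization, 2799, 1292 and 1603 with normexp and the 75th percentile, and 16445, 9416 and 13127 without a minimum fold change. By the methods' t-test after Benjamini-Hochberg adjustment it was 3360, 2207 and 2524 genes, with 7, 6 and 3 CXC genes. Without a filter on dim probes, 4489 genes were called between 3 and 1 dpi. Without a minimum fold change, 6 CXC genes and 10 CXC probes were called for 3 dpi against 1 dpi. More calls without a minimum fold follow from how that alternative is made. For the others the cause was not tested.

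Of the log2 fold changes of the 9 genes, 552 kept their direction and side of the threshold, 20 lost the call, 12 gained it and 7 changed sign. Part of this follows from how the alternatives are made. The replicate block, fits of only the groups compared, the t-tests and leaving out an array of the group not compared left the log2 values unchanged. Slide as a block repeats the log2 values without Ctrl replicate 1. Cxcl11 at 3 dpi was -0.07 in the deposited table, with slide as a block and without Ctrl replicate 1, and it was 0.24 without Ctrl replicate 2. Cxcl5 for 3 dpi against 1 dpi was 0.02 after quantile normalization and in the deposited table, and 0.03 after scaling to the array median and with normexp and quantile normalization. The deposited value of Cxcl11 is that of its other probe, which had -0.05 here. None of these values was called, and for the others the cause was not tested.

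Leaving out 1 array at a time gave 3599 to 5378, 2363 to 2775 and 2269 to 2881 genes called in the 3 comparisons, 6 to 7, 6 to 7 and 2 to 4 CXC genes, and 7 to 8, 7 to 8 and 3 to 5 CXC probes. No pairing by replicate number was visible. Arrays with the same number had correlations of -0.11 to 0.13 in their deviations from the group means, and those with different numbers of -0.15 to 0.1. With so few arrays per group this check cannot exclude a pairing. With the replicate block, 4273, 2498 and 2494 genes, 7, 6 and 3 CXC genes and 8, 7 and 4 CXC probes were called, so it changed no count of CXC calls. Taking the 2-fold change relative to the median of all genes, an alternative chosen after seeing the data, gave 3938, 2552 and 2445 genes, 6, 7 and 3 CXC genes and 7, 8 and 4 CXC probes.

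Signal over background limits the dim probes. Only the values of Cxcl13 against Ctrl given as at least a fold are bounds, while its calls and plotted points rest on measured Ctrl signals near background. The changes of Cxcl1 shrink with the offset of normexp. Cell counts were not measured on these arrays, and protein was not measured.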
